A study of Mus musculus with 12 samples.

Results

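The genes described here encode the nuclear-encoded subunits of the mitochondrial respiratory chain and ATP synthase, measured in whole mouse kidney after ischemia or sham surgery. Members were chosen by gene symbol alone: every probe set of the array whose platform annotation names exactly 1 gene, with a symbol that starts with Nduf (without Ndufa4l2 and the Ndufaf assembly factors), Sdha to Sdhd, Uqcr, Cox4 to Cox8 or Atp5. This gave 81 genes on 168 probe sets, of 18194 named genes and 45101 probe sets in all. Complex I had 34 of the genes, complex II 4, complex III 8, complex IV 18 and complex V, the ATP synthase, 17. Ndufa4 was counted with complex IV, of which its protein is a subunit. Of the 81 genes, 80 passed the filter on low signals, and only Cox7b2 did not.

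All animals were 8-week-old male mice and each array held total RNA from the kidney of 1 mouse, labelled as a biological replicate. The 4 groups of 3 arrays were TLR4 null ischemic, TLR4 null sham, WT ischemic and WT sham. TLR4 null mice were of the strain C57BL/10ScNJ with the genotype TLR4-/-, and WT mice were C57BL/10, so any other difference between these substrains cannot be told apart from the loss of Tlr4. In the ischemic groups the left renal pedicle was clamped for 23 min, and the kidney was taken after 4 h of reperfusion. Mice of all 4 groups also lost the right kidney, and in sham mice the clip was laid under the pedicle.

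The respiratory chain passes electrons from NADH (through complex I) or succinate (through complex II, which is also an enzyme of the tricarboxylic acid cycle) to complex III and then to complex IV, where oxygen is reduced. Complexes I, III and IV pump protons out of the mitochondrial matrix, and ATP synthase uses the returning protons to make ATP. Kidney tubule cells, above all those of the proximal tubule and the thick ascending limb, are rich in mitochondria and depend on this pathway for salt transport. Most subunits are encoded in the nucleus. The subunits encoded by mitochondrial DNA, which include the proton-pumping core of complex I and the catalytic core of complex IV, have no named probe set on the array and are not described.

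The array values are MAS5 signal intensities from the authors. All 12 arrays share a trimmed mean of 250.002, taken without the outer probe sets (the middle 96% were kept). A signal compares arrays for 1 probe set, and it does not rank genes by transcript amount. The array median lay between 61.2 and 77.4, and arrays of a group correlated at 0.963 to 0.979 over log2 signals. Of the 4 probe sets of Tlr4, the one with the clearest difference gave 0.901 to 3.38 in the 6 TLR4 null arrays and 65.6 to 120.4 in the 6 WT arrays, as the labels say. Another gave 6.33 to 60.4 in TLR4 null arrays and 72.9 to 134.8 in WT arrays, and the 2 dimmest overlapped between genotypes. Markers of kidney tubule segments were present on all arrays. In whole kidney, fewer cells of a type and less RNA per cell cannot be told apart.

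The promoters of a few members are shown first, because many of these genes are known targets of the factors NRF1, GABP, YY1 and the estrogen-related receptor. RefSeq windows of 300 bases (build GRCm38.p6, 250 bases before to 50 after the gene start) were matched for 67 of the 81 genes. The 4 windows below belong to subunits of complex I and complex II that were called lower after ischemia. They are given 5′ to 3′ on the gene's strand. Ndufb8 lies at chr19:44555393-44555692 (minus strand), Ndufs7 at chr10:80249199-80249498 (plus strand), Ndufs4 at chr13:114388045-114388344 (minus strand) and Sdhd at chr9:50603800-50604099 (minus strand). Capitals mark the YY1 motif in Ndufs7 and Ndufs4, and the reverse complements of the GABP motif and then the receptor motif in Sdhd. Ndufb8, which had the lowest p of all members in the averaged ischemia comparison, holds no match to any of the 4 motifs.
Ndufb8: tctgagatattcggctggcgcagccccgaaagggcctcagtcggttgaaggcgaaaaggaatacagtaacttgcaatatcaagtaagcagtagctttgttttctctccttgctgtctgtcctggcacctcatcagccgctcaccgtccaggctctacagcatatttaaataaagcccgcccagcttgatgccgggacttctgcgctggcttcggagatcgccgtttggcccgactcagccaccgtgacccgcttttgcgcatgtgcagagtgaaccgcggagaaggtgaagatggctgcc
Ndufs7: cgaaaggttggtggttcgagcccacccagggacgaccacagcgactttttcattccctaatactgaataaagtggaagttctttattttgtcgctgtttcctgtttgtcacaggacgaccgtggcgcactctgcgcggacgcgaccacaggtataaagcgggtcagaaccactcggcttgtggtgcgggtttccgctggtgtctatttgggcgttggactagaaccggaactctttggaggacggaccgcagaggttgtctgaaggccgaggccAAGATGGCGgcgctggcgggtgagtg
Ndufs4: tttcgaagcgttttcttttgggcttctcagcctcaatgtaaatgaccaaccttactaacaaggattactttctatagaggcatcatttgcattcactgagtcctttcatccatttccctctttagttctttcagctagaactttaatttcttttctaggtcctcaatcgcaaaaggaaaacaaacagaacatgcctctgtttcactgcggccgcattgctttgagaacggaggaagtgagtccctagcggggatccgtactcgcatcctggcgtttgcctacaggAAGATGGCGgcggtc
Sdhd: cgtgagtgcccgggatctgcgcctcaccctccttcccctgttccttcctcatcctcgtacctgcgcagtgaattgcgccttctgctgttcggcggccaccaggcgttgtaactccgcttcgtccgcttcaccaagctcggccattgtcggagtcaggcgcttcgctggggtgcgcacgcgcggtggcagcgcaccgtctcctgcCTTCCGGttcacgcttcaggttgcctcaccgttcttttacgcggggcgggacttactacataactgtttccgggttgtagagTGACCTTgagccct

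The motifs were searched on both strands as GCGCATGCG (NRF1), CCGGAAG (GABP), AAGATGGCG (YY1) and AAGGTCA (receptor). The NRF1 motif was in 7 of the 67 member windows (10.4%), against 1.95% of the windows of all 27025 genes and 3.51% of the tested genes. GABP matched 17 members (25.4%), against 9.93% of all windows and 17.3% of the tested genes. YY1 matched 6 members (8.96%), against 1.64% and 3.03%, and the receptor motif 8 members (11.9%), against 5.38% and 4.26%. Of the members with each motif, 2 of 7 with NRF1, 8 of 17 with GABP, 5 of 6 with YY1 and 4 of 8 with the receptor motif were called lower after ischemia averaged over both genotypes. Among all tested genes with the motif, the shares called lower were 24.1%, 18.9%, 21.9% and 18.1% in the same order. With or without a motif, 42.5% of the 80 tested subunits and 19.4% of all tested genes were called lower. A match is a description of the letters and not of a binding site.

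Subunit transcripts were lower in ischemic than in sham kidneys by a small amount, and most of the calls were in complex I. Averaged over both genotypes, 34 of 80 subunits fell and none rose (limma, adjusted p under 0.05 over 14322 genes), with 19.4% of all tested genes called lower and 13.7% called higher. The median log2 difference of the 80 subunits was -0.15, a change of -9.93%, against -0.08 for all genes. In TLR4 null kidneys 24 of 80 subunits fell and none rose, where 11.7% of all genes were called lower and 9.86% higher. In WT kidneys 9 of 80 fell and none rose, where 10.5% of all genes were called lower and 9.17% higher. These p-values rest on the spread between mice within groups of 3. That spread is pooled over the 4 groups and moderated towards that of genes of like signal.

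The subunits are among the brightest genes on the array, with a median signal of 6035 against 233 for all genes, and bright genes were called lower more often. Of the 1074 genes with a mean signal of 2000 to 20000, 39.5% were called lower averaged over genotypes, 29.4% in TLR4 null kidneys and 20.9% in WT kidneys. The share of all subunits called lower, 42.5% averaged over genotypes, lay near that of the bright genes. In WT kidneys the share of subunits called lower was 11.2%, and that of complex I 17.6%, both below the 20.9% of bright genes. In the averaged comparison the complexes lay on either side of the bright-gene share: 23 of 34 complex I subunits fell (67.6%), against 11 of 46 subunits of complexes II to V (23.9%). Complex II had 3 of 4 called lower, complex III 2 of 8, complex IV 2 of 17 and complex V 4 of 17.

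The complexes were also compared by their medians. Beside them, the median log2 difference of all genes was -0.08 averaged over genotypes, -0.07 in TLR4 null kidneys and -0.09 in WT kidneys. That of the bright genes was -0.11, -0.14 and -0.07 in the same order. Averaged over genotypes, the median log2 difference was -0.20 in complex I (a change of -12.8%), -0.19 in complex II, -0.14 in complex V, -0.09 in complex III and -0.08 in complex IV. In TLR4 null kidneys the medians were -0.23 in complex I, -0.17 in II, -0.12 in III, -0.09 in IV and -0.20 in V. In WT kidneys they were -0.18 in complex I, -0.22 in II, -0.09 in III, -0.14 in IV and -0.06 in V. Averaged over genotypes, the medians of complexes III and IV were not below that of the bright genes. In WT kidneys the median of complex V was not below that of all genes or of the bright genes. Without its 6 dim tissue-specific isoforms, complex IV had a WT median of -0.014, the nearest to 0. Those of complexes III and V in WT kidneys were 0.00 and 0.02 when each array was scaled to 1 median signal. Of the 34 complex I subunits, 32 had a negative averaged difference.

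**Figure D1:**
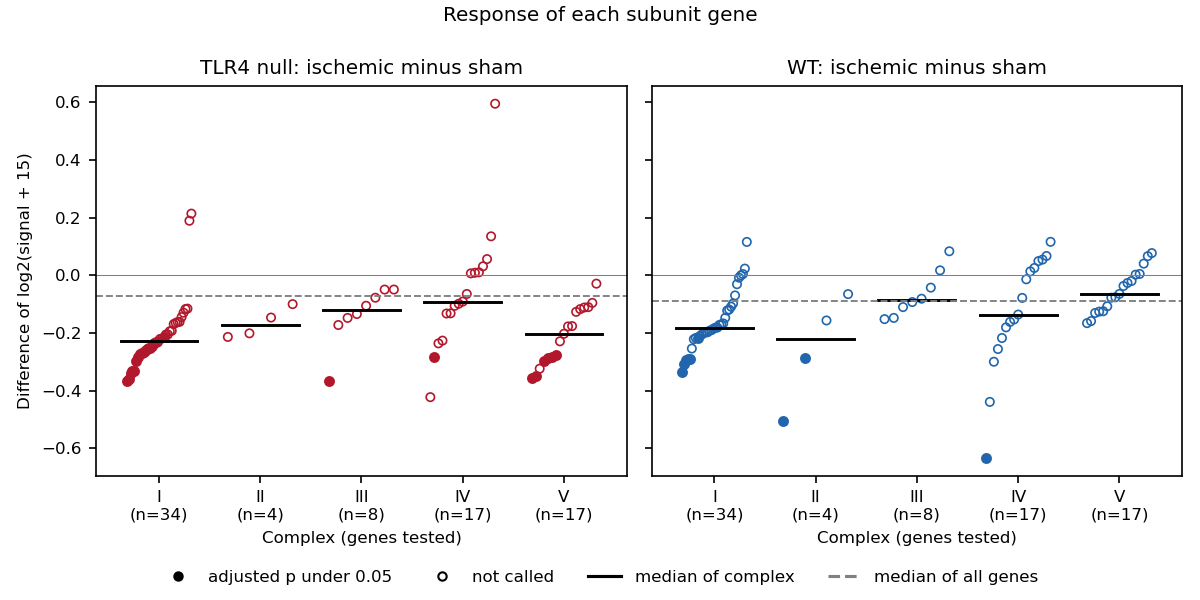
Log2 difference, ischemic minus sham, of each tested subunit in TLR4 null and WT kidneys, by complex, where each point is a gene, filled points have an adjusted p under 0.05, the black line is the complex median and the dashed line the median of all genes. Complex I holds 16 of the 24 filled points in TLR4 null kidneys and 6 of the 9 in WT kidneys, and no filled point lies above 0.

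The size of the calls is small beside the choices of array scaling. Scaling each array to 1 median signal left 0 subunits called in TLR4 null kidneys, 0 in WT kidneys and 2 averaged over genotypes (Ndufb8, -0.27, adjusted p = 0.0449, and Cox6b2, -0.38, adjusted p = 0.0355, by limma), and the split of all genes called in the averaged comparison was 1870 higher and 1538 lower, against 1957 higher and 2778 lower as deposited. In WT kidneys that split was 1239 higher and 549 lower, against 1313 higher and 1501 lower as deposited. Centring on the bright genes, an alternative chosen after seeing the data, gave 21, 17 and 41 subunits called lower in TLR4 null, WT and averaged kidneys. Quantile normalization gave 20, 28 and 45, so that the order of the genotypes turned. Without the variance trend the counts were 7, 5 and 21.

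Single arrays also moved the counts. In TLR4 null kidneys, 8 subunits were called without TLR4 null ischemic replicate 1, 10 without TLR4 null sham replicate 1 and 6 without TLR4 null sham replicate 2. In WT kidneys, 14 were called without WT ischemic replicate 2, 4 without WT ischemic replicate 3, 2 without WT sham replicate 2 and 4 without WT sham replicate 3. The averaged count was 22 without TLR4 null sham replicate 2.

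A measure within each array does not depend on the scaling of that array. The mean log2 signal of the complex I subunits minus that of the bright genes was -0.09, -0.12 and -0.10 in TLR4 null ischemic arrays, against 0.08, 0.07 and 0.04 in TLR4 null sham arrays. In WT ischemic arrays it was -0.11, -0.05 and -0.12, against 0.06, 0.13 and 0.08 in WT sham arrays. All 6 ischemic arrays lay below all 6 sham arrays, at -0.117 to -0.0496 against 0.0402 to 0.131. The mean of the bright genes includes genes that rose, with 19.4% called higher and averaged log2 differences up to 6.23. It was 11.97 over ischemic and 11.98 over sham arrays, but the median averaged log2 difference of the bright genes was -0.11. That of complex I was -0.20, so the gap is narrower by medians than by these means. Set against complex IV without its tissue-specific isoforms, complex I was also lower on every ischemic array, with log2 differences between the complexes of -0.92 to -0.80 in ischemic arrays and -0.77 to -0.68 in sham arrays. These means are given with no test, since the members were chosen with results known.

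**Figure D2:**
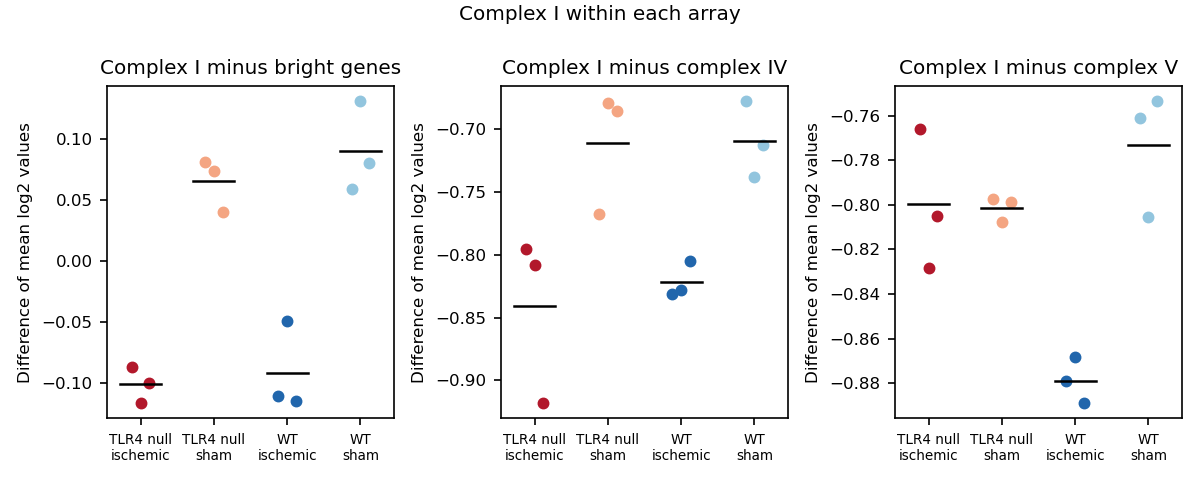
Mean log2 signal of the complex I subunits on each array, relative to other transcripts of the same array, by group (each point is 1 array, each line a group mean). Relative to the mean of the bright genes, the 6 ischemic arrays lie between -0.117 and -0.0496 and the 6 sham arrays between 0.0402 and 0.131.

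Complex I, NADH dehydrogenase, has a matrix arm that takes electrons from NADH and a membrane arm that pumps protons, with many accessory subunits around a conserved core. Of the 6 nuclear-encoded core subunits of the matrix arm (Ndufs1, Ndufs3, Ndufs7, Ndufs8, Ndufv1 and Ndufv2), 5 fell averaged over genotypes, 4 in TLR4 null kidneys and 2 in WT kidneys. Of the 28 accessory subunits, 18 fell averaged over genotypes, 12 in TLR4 null kidneys and 4 in WT kidneys. The bright genes called lower were 39.5%, 29.4% and 20.9% in these 3 comparisons, so the 4 of 28 in WT kidneys (14.3%) lay below them. By symbol, 8 of 12 Ndufa, 6 of 11 Ndufb, 1 of 2 Ndufc, 5 of 6 Ndufs and all 3 Ndufv genes were called lower in the averaged comparison.

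Ndufb8 encodes an accessory subunit of the membrane arm, often used as a protein marker of assembled complex I. Its signal was 4213, 4193 and 4100 in TLR4 null ischemic kidneys, against 5341, 5480 and 4951 in TLR4 null sham kidneys. It was 3965, 4355 and 3937 in WT ischemic kidneys, against 4938, 5407 and 4843 in WT sham kidneys. Every ischemic array was below every sham array. The log2 difference was -0.33 in TLR4 null kidneys (SE 0.07, limma adjusted p = 0.00495), -0.31 in WT kidneys (SE 0.07, adjusted p = 0.00858) and -0.32 averaged (SE 0.05, adjusted p = 0.000252), a change of -19.9%.

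Ndufb3, another accessory subunit of the membrane arm, had 2550, 2835 and 2672 in TLR4 null ischemic kidneys, against 3016, 3187 and 3265 in TLR4 null sham kidneys. WT ischemic kidneys had 2519, 2738 and 2544, against 3219, 3329 and 3291 in WT sham kidneys. The groups did not overlap, and Ndufb3 fell by 0.23 on the log2 scale in TLR4 null kidneys (limma adjusted p = 0.0322) and by 0.33 in WT kidneys (adjusted p = 0.00411). Ndufb10, an accessory subunit of the same arm, had 2847, 3022 and 3168 in TLR4 null ischemic kidneys, against 3780, 4148 and 3746 in TLR4 null sham kidneys. It had 3005, 3385 and 3093 in WT ischemic kidneys, against 3525, 3689 and 3535 in WT sham kidneys. Both genotypes' ischemic arrays were below their sham arrays, but only the TLR4 null difference passed the threshold (-0.37, limma adjusted p = 0.00295, against -0.18, adjusted p = 0.116, in WT kidneys).

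Ndufs7 encodes the core subunit with the iron-sulfur cluster that hands electrons to ubiquinone. Its signal was 3244, 3167 and 3364 in TLR4 null ischemic kidneys, against 3792, 4264 and 3774 in TLR4 null sham kidneys. It was 3349, 3214 and 2838 in WT ischemic kidneys, against 3623, 3784 and 4068 in WT sham kidneys. All ischemic arrays were below all sham arrays, and the log2 difference was -0.27 in TLR4 null kidneys (limma adjusted p = 0.0296) and -0.29 in WT kidneys (adjusted p = 0.0238). Ndufv2, a core iron-sulfur subunit at the NADH end, fell by 0.21 in TLR4 null kidneys (limma adjusted p = 0.042) and by 0.22 in WT kidneys (adjusted p = 0.041). Ndufb8, Ndufb3, Ndufs7 and Ndufv2 were the 4 subunits called in both genotypes.

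Ndufs4 and Ndufs5 are accessory subunits, and loss of NDUFS4 causes Leigh syndrome in people. Ndufs4 had 1956, 1982 and 1835 in TLR4 null ischemic kidneys, against 2170, 2325 and 2238 in TLR4 null sham kidneys. It had 1947, 2045 and 1789 in WT ischemic kidneys, against 2331, 2456 and 2305 in WT sham kidneys. Again no ischemic array reached a sham array, and the averaged log2 difference was -0.26 (limma adjusted p = 0.00166). Ndufs5 had 2663, 2638 and 2503 in TLR4 null ischemic kidneys, against 3492, 3430 and 3107 in TLR4 null sham kidneys. WT ischemic kidneys had 2580, 3167 and 2749, against 3234, 3559 and 3316 in WT sham kidneys. The ischemic and sham arrays did not overlap within a genotype, and the averaged difference was -0.31 (limma adjusted p = 0.00116).

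Ndufs1, a large core subunit that carries several iron-sulfur clusters, fell by 0.34 in TLR4 null kidneys (limma adjusted p = 0.00764). In the averaged comparison, the other complex I subunits called lower were Ndufa2, Ndufa5, Ndufa6, Ndufa7, Ndufa8, Ndufa9, Ndufa10, Ndufab1, Ndufb2, Ndufb5, Ndufb7, Ndufc1, Ndufs3, Ndufv1 and Ndufv3, with log2 differences between -0.26 (Ndufc1) and -0.16 (Ndufb5). The 11 that were not called were Ndufa1, Ndufa3, Ndufa12, Ndufa13, Ndufb1, Ndufb4, Ndufb6, Ndufb9, Ndufb11, Ndufc2 and Ndufs8. Of these, Ndufa12 and Ndufc2 were called lower in TLR4 null kidneys alone (-0.24, limma adjusted p = 0.0486, and -0.28, adjusted p = 0.0194), and the difference between genotypes was called for neither.

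Ndufa1, the brightest complex I probe set, showed no separation. It had 10935, 10830 and 11174 in TLR4 null ischemic kidneys, against 12223, 12396 and 11136 in TLR4 null sham kidneys. It had 11852, 11899 and 10606 in WT ischemic kidneys, against 10884, 11898 and 11549 in WT sham kidneys. The averaged log2 difference was -0.06 (limma adjusted p = 0.442). Ndufb1, which is dim on this array, had the highest averaged difference of all subunits. Its signal was 291, 287 and 242 in TLR4 null ischemic kidneys, against 224, 212 and 266 in TLR4 null sham kidneys, and 269, 239 and 285 in WT ischemic kidneys, against 205, 324 and 212 in WT sham kidneys. The groups overlapped, and the difference of 0.17 did not pass the threshold (adjusted p = 0.303).

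Complex II, succinate dehydrogenase, has a catalytic head (the flavoprotein Sdha and the iron-sulfur protein Sdhb) and a membrane anchor (Sdhc and Sdhd). Sdhc had 2446, 2289 and 1627 in TLR4 null ischemic kidneys, against 2189, 2633 and 2408 in TLR4 null sham kidneys, and these arrays overlapped. It had 1883, 1723 and 1683 in WT ischemic kidneys, against 2503, 2260 and 2789 in WT sham kidneys, with no overlap. The log2 difference was -0.20 in TLR4 null kidneys (limma adjusted p = 0.325) and -0.51 in WT kidneys (SE 0.13, adjusted p = 0.0127), and the difference between genotypes was not called (interaction adjusted p = 0.833). Sdhd had 2577, 2472 and 2444 in TLR4 null ischemic kidneys, against 2450, 2954 and 2650 in TLR4 null sham kidneys. It had 2407, 2525 and 2193 in WT ischemic kidneys, against 2855, 2957 and 2874 in WT sham kidneys. As for Sdhc, only the WT arrays were apart (-0.29, limma adjusted p = 0.0234, against -0.10, adjusted p = 0.455, in TLR4 null kidneys).

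Sdhb, the brightest complex II probe set, had 7646, 7718 and 8356 in TLR4 null ischemic kidneys, against 9295, 9502 and 8710 in TLR4 null sham kidneys. It had 7652, 8117 and 6966 in WT ischemic kidneys, against 7614, 8790 and 8952 in WT sham kidneys. The TLR4 null arrays were apart and the WT arrays overlapped, and only the averaged difference passed (-0.18, limma adjusted p = 0.0268). Sdha had an averaged difference of -0.11 (adjusted p = 0.142) on its brightest probe set.

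**Figure D3:**
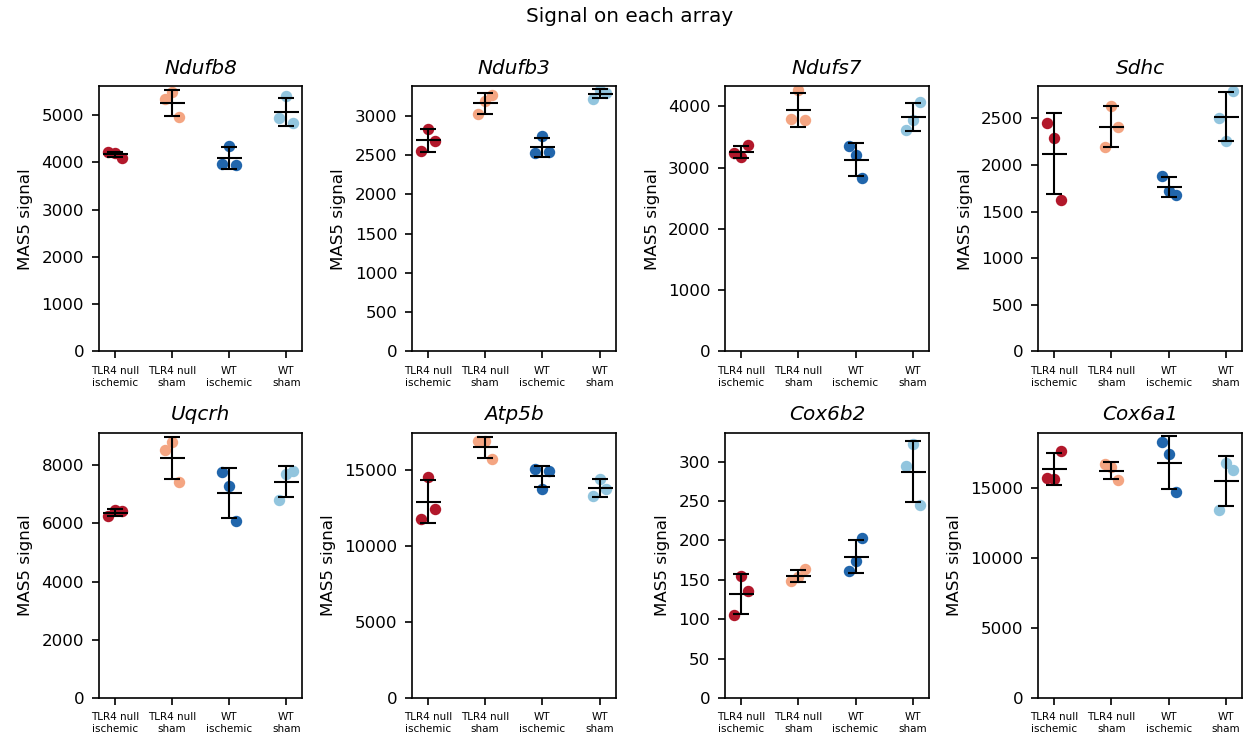
Signal on each array for Ndufb8, Ndufb3, Ndufs7, Sdhc, Uqcrh, Atp5b, Cox6b2 and Cox6a1, by group (points are arrays, bars are means ± SD, n = 3, and each axis starts at 0). The ischemic arrays of Ndufb8, Ndufb3 and Ndufs7 lie below the sham arrays in both genotypes, those of Sdhc in WT kidneys, those of Uqcrh and Atp5b in TLR4 null kidneys, and those of Cox6a1 overlap the sham arrays.

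Complex III, the cytochrome bc1 complex, passes electrons from ubiquinol to cytochrome c. Uqcrh encodes the hinge protein near the cytochrome c docking site. It had 6246, 6449 and 6422 in TLR4 null ischemic kidneys, against 8531, 8791 and 7408 in TLR4 null sham kidneys, with no overlap. It had 7780, 7271 and 6087 in WT ischemic kidneys, against 6811, 7684 and 7787 in WT sham kidneys, and these arrays overlapped. The log2 difference was -0.37 in TLR4 null kidneys (SE 0.10, limma adjusted p = 0.0131) and -0.08 in WT kidneys (adjusted p = 0.618), with an interaction of -0.29 (adjusted p = 0.783). The core protein Uqcrc2 fell averaged over genotypes (-0.16, limma adjusted p = 0.0307).

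Uqcrb, a ubiquinone-binding subunit and the brightest of complex III, had 17218, 17100 and 19956 in TLR4 null ischemic kidneys, against 19204, 18881 and 17946 in TLR4 null sham kidneys. It had 19491, 20118 and 16407 in WT ischemic kidneys, against 15958, 18235 and 18574 in WT sham kidneys. The groups overlapped and the averaged difference was 0.02 (limma adjusted p = 0.873). The other 5 complex III subunits, Uqcr10, Uqcr11, Uqcrc1, Uqcrfs1 (the Rieske iron-sulfur protein) and Uqcrq, had averaged differences between -0.15 and -0.06, and none was called. Cyc1, the cytochrome subunit of the same complex that the symbol rule leaves out, fell by 0.18 averaged over genotypes (limma adjusted p = 0.0127), and Cycs, which encodes cytochrome c, had -0.06 (adjusted p = 0.491).

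Complex V, ATP synthase, joins a catalytic head in the matrix to a rotating ring of c subunits in the membrane, held by a peripheral stalk. On the brightest probe set of each gene, all 6 calls within a genotype were in TLR4 null kidneys, and 0 were in WT kidneys. In TLR4 null kidneys this was 35.3% of 17 subunits, where 29.4% of the bright genes and 11.7% of all genes were called lower. In WT kidneys 20.9% of the bright genes and 10.5% of all genes were called lower. Over all 29 probe sets of complex V past the filter, 9 were called lower in TLR4 null kidneys and 1 in WT kidneys. Of all probe sets, 8.23% and 7.91% were called lower there. All 4 peripheral stalk subunits fell in TLR4 null kidneys: Atp5o (-0.35, limma adjusted p = 0.00823), Atp5h (-0.30, adjusted p = 0.0199), Atp5pb (-0.29, adjusted p = 0.0188) and Atp5j (-0.28, adjusted p = 0.0352). In WT kidneys their differences lay between -0.12 and 0.01, and none was called. None of the 17 subunits was called for the difference between genotypes.

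Atp5o, which links the head to the stalk, had 5150, 5731 and 5440 in TLR4 null ischemic kidneys, against 7022, 7292 and 6487 in TLR4 null sham kidneys. It had 5755, 6460 and 5685 in WT ischemic kidneys, against 5838, 6898 and 6563 in WT sham kidneys. The TLR4 null arrays were apart and the WT arrays overlapped. Atp5b, the catalytic beta subunit of the head, had 11828, 14553 and 12457 in TLR4 null ischemic kidneys, against 16936, 16916 and 15733 in TLR4 null sham kidneys. It had 15073, 13800 and 14952 in WT ischemic kidneys, against 13305, 14458 and 13761 in WT sham kidneys. Ischemic arrays were thus lower in TLR4 null mice, and overlapped with sham arrays in WT mice.

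The log2 difference of Atp5b was -0.36 in TLR4 null kidneys (SE 0.08, limma adjusted p = 0.00654) and 0.08 in WT kidneys (SE 0.08, adjusted p = 0.58). Its interaction of -0.43 (SE 0.12) had the lowest p of all subunits and did not pass over all genes (adjusted p = 0.519). Between genotypes, Atp5b was 0.26 higher in TLR4 null than in WT sham kidneys (adjusted p = 0.281) and differed by -0.18 between ischemic kidneys (adjusted p = 0.439), and neither passed. The head subunits Atp5a1, Atp5c1, Atp5d and Atp5e were not called in either genotype. Atp5l, a small membrane subunit, fell in TLR4 null kidneys (-0.27, limma adjusted p = 0.0221), and Atp5mpl in the averaged comparison (-0.18, adjusted p = 0.0313).

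The c subunit genes Atp5g1, Atp5g2 and Atp5g3 encode the same mature protein, and none was called in any comparison. Atp5g3, the brightest probe set of complex V, had 13596, 14407 and 16308 in TLR4 null ischemic kidneys, against 15618, 15331 and 14160 in TLR4 null sham kidneys. It had 16112, 15916 and 13183 in WT ischemic kidneys, against 12735, 15652 and 14757 in WT sham kidneys. The groups overlapped, and the averaged difference was 0.02 (limma adjusted p = 0.87). The small membrane subunits Atp5j2, Atp5k and Atp5md had averaged differences of -0.07, -0.09 and -0.24, of which none passed.

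Complex IV, cytochrome c oxidase, showed few calls on the brightest probe set of each gene, and those were in a single family. Over all its probe sets, 6 of 32 were called lower averaged over genotypes. Cox6b1 has 2 of these probe sets and Cox6b2 has 1, so other genes of the complex also had a call. Cox6b1, the common form of a subunit on the intermembrane-space side, had 10596, 11904 and 11075 in TLR4 null ischemic kidneys, against 14150, 14252 and 12470 in TLR4 null sham kidneys. It had 12126, 12634 and 11168 in WT ischemic kidneys, against 11839, 14378 and 13336 in WT sham kidneys. The TLR4 null arrays were apart (-0.28, limma adjusted p = 0.0345), the WT arrays overlapped (-0.14, adjusted p = 0.33), and the averaged difference was -0.21 (adjusted p = 0.0189).

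Cox6b2, the testis form of the same subunit, is dim in kidney and was the single member that also differed between genotypes. Its signal was 105, 155 and 136 in TLR4 null ischemic kidneys, against 148, 154 and 163 in TLR4 null sham kidneys, and these arrays overlapped. It was 161, 174 and 203 in WT ischemic kidneys, against 294, 322 and 246 in WT sham kidneys, with no overlap. The log2 difference was -0.23 in TLR4 null kidneys (limma adjusted p = 0.362) and -0.63 in WT kidneys (SE 0.16, adjusted p = 0.0101). Between TLR4 null sham and WT sham kidneys it was -0.82 (SE 0.16, adjusted p = 0.0429), where 0.314% of all genes were called in either direction. That call was lost (0 subunits) under several alternatives, among them median scaling, no filter and no variance trend, and without any 1 of TLR4 null sham replicates 1, 2 and 3, WT sham replicates 1 and 2 or WT ischemic replicates 1 and 2.

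Other ubiquitous subunits of complex IV were not called on their brightest probe sets, which are the ones given here. Cox6a1, the brightest, had 15734, 15699 and 17680 in TLR4 null ischemic kidneys, against 16749, 16505 and 15571 in TLR4 null sham kidneys, and 18355, 17452 and 14709 in WT ischemic kidneys, against 13476, 16794 and 16339 in WT sham kidneys. Cox4i1 had 13638, 13664 and 14948 in TLR4 null ischemic kidneys, against 14641, 14526 and 12810 in TLR4 null sham kidneys, and 14618, 14682 and 12700 in WT ischemic kidneys, against 12493, 13013 and 14573 in WT sham kidneys. For both, the groups overlapped in each genotype, with averaged differences of 0.06 (limma adjusted p = 0.553) and 0.04 (adjusted p = 0.681). Cox7a2 had 14844, 15476 and 15794 in TLR4 null ischemic kidneys, against 17194, 17046 and 15193 in TLR4 null sham kidneys, and 15982, 16675 and 13698 in WT ischemic kidneys, against 13724, 16158 and 15992 in WT sham kidneys. Cox8a had 7147, 6415 and 7750 in TLR4 null ischemic kidneys, against 7290, 7210 and 6633 in TLR4 null sham kidneys, and 6690, 6870 and 6164 in WT ischemic kidneys, against 7283, 7494 and 7266 in WT sham kidneys. Cox7a2 overlapped in both genotypes (averaged -0.04, adjusted p = 0.667). For Cox8a the WT arrays were apart, and the difference did not pass (-0.16, adjusted p = 0.19). Cox5a, Cox5b, Cox6c, Ndufa4, Cox7a2l and Cox7c had averaged differences between -0.17 and 0.01, none called. The WT arrays of Cox7a2l were also apart (-0.26, adjusted p = 0.111), and Cox7c had only a dim probe set here.

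Tissue-specific isoforms of complex IV replace their common partners in lung (Cox4i2), in heart and skeletal muscle (Cox6a2 and Cox7a1), in heart, muscle and brown fat (Cox8b) or in testis (Cox7b2 and Cox8c). Cox4i2 had 79.8, 56.6 and 89.3 in TLR4 null ischemic kidneys, against 96.5, 75.5 and 99.6 in TLR4 null sham kidneys, and 86.9, 86.1 and 77.7 in WT ischemic kidneys, against 88.0, 88.4 and 64.9 in WT sham kidneys. Cox6a2 had 136, 71.1 and 138 in TLR4 null ischemic kidneys, against 164, 137 and 160 in TLR4 null sham kidneys, and 114, 111 and 86.1 in WT ischemic kidneys, against 155, 105 and 112 in WT sham kidneys. Both overlapped between ischemic and sham arrays and were not called. Cox7a1 had 469, 350 and 331 in TLR4 null ischemic kidneys, against 356, 353 and 383 in TLR4 null sham kidneys, and 351, 336 and 375 in WT ischemic kidneys, against 352, 468 and 395 in WT sham kidneys. Cox8c had 662, 568 and 666 in TLR4 null ischemic kidneys, against 650, 481 and 599 in TLR4 null sham kidneys, and 483, 416 and 507 in WT ischemic kidneys, against 540, 555 and 644 in WT sham kidneys. Neither was called, although the WT arrays of Cox8c were apart, and Cox7b2 stayed under the filter with at most 25 on any array.

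Cox8b varied widely between arrays of the same group. It had 538, 36.9 and 72.0 in TLR4 null ischemic kidneys, against 47.4, 47.5 and 171 in TLR4 null sham kidneys. It had 250, 25.1 and 489 in WT ischemic kidneys, against 176, 232 and 267 in WT sham kidneys. Surgery did not separate these arrays, and the difference was 0.60 in TLR4 null kidneys (SE 0.84, limma adjusted p = 0.688). The brown fat marker Ucp1, the uncoupling protein, was also highest on TLR4 null ischemic replicate 1, with 714, 2.91 and 29.2 in TLR4 null ischemic kidneys, against 17.0, 116 and 258 in TLR4 null sham kidneys, and 136, 4.67 and 184 in WT ischemic kidneys, against 137, 203 and 191 in WT sham kidneys. Cidea, a lipid droplet protein of brown fat, had 905, 40.9 and 133 in TLR4 null ischemic kidneys, against 88.8, 127 and 336 in TLR4 null sham kidneys, and 460, 74.6 and 620 in WT ischemic kidneys, against 259, 385 and 523 in WT sham kidneys. The 4 tested brown fat markers were not called. A sum was taken over the 7 listed brown fat markers on the array, which include untested ones. This sum was 258 to 1858 in TLR4 null ischemic kidneys and 352 to 827 in TLR4 null sham kidneys. It was 331 to 1032 in WT ischemic kidneys and 600 to 930 in WT sham kidneys. The lowest signal of any probe set was 0.0377, so a signal above 0 does not show that a marker was present. The part of fat in the result for Cox8b was not tested.

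**Figure D4:**
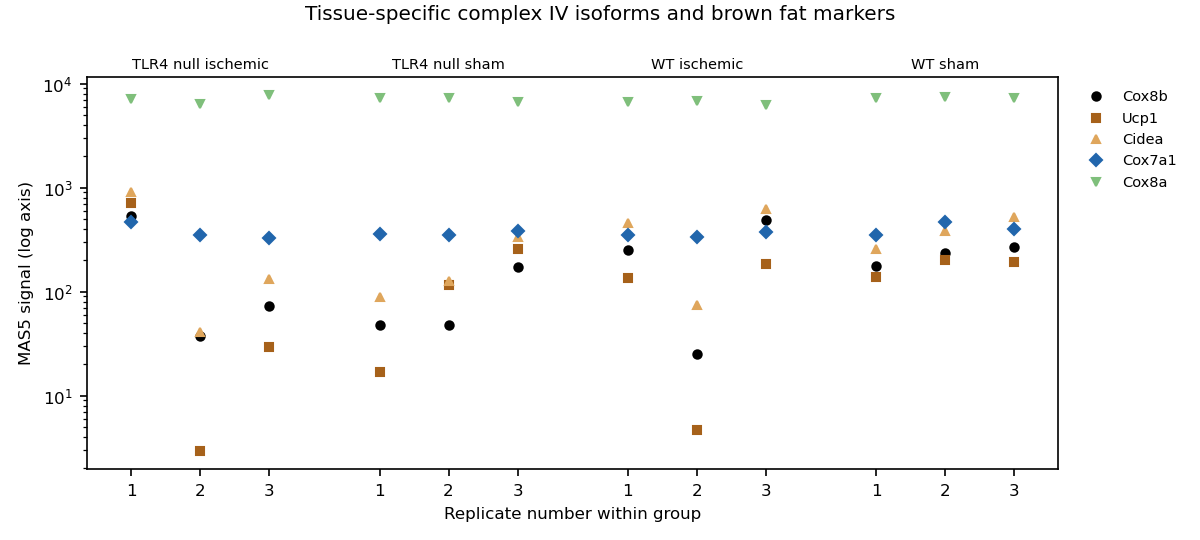
Signal on each array for Cox8b, the brown fat markers Ucp1 and Cidea, and the complex IV subunits Cox7a1 and Cox8a, by group. Cox8b, Ucp1 and Cidea are highest together on TLR4 null ischemic replicate 1 (538, 714 and 905), and Cox8a lies between 6164 and 7750 on all arrays.

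The genotypes were compared directly. For the difference between the TLR4 null response and the WT response, 0 subunits were called by limma, where 0% of all genes were called, and 5 subunits had an unadjusted p under 0.05 (Ndufc2, Cox8c, Atp5b, Atp5h and Atp5pb), as did 913 of all genes. So the 20 subunits called in TLR4 null kidneys alone and the 5 called in WT kidneys alone were not shown to differ between genotypes. Between TLR4 null ischemic and WT ischemic kidneys, 0 subunits were called by limma, 4 had an unadjusted p under 0.05, and 0.656% of all genes were called in either direction. All 17 ATP synthase subunits had a negative difference there, with a median of -0.10 (-0.0032 for the bright genes), and 13 of 17 with a median of -0.05 after quantile normalization. Between TLR4 null sham and WT sham kidneys the ATP synthase subunits lay the other way, with 13 of 17 positive and a median of 0.07 (0.06 for the bright genes), and none was called. The TLR4 null ischemic group enters this comparison and the response of its own genotype, so the values are not independent.

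Complex I was also set against complex V within each array. The mean log2 signal of complex I minus that of complex V was -0.77, -0.83 and -0.80 in TLR4 null ischemic arrays, against -0.80, -0.81 and -0.80 in TLR4 null sham arrays, and these overlapped. It was -0.88, -0.87 and -0.89 in WT ischemic arrays, against -0.76, -0.81 and -0.75 in WT sham arrays, with no overlap. These values do not depend on the scaling of the arrays and carry no test.

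Within the members, the difference after ischemia went with the signal of the probe set. Over the 70 subunits with a mean signal of 2000 to 20000, Spearman's rho between signal and log2 difference was 0.823 in WT kidneys, 0.283 in TLR4 null kidneys and 0.694 averaged, against 0.120, -0.009 and 0.063 over all genes of that range. Brighter subunits thus had differences nearer to 0, most clearly in WT kidneys. In the averaged comparison, 21 of 27 subunits with a signal of 2000 to 5000 were called lower, 11 of 28 at 5000 to 10000 and 1 of 15 at 10000 to 20000, against 44.1%, 34.5% and 15.7% of all genes in the same ranges. Complex I supplied 18, 13 and 1 of these subunits, and 8 of the 15 brightest belonged to complex IV, so the complex and the signal cannot be fully told apart. Within complex I alone, rho was 0.781 in WT kidneys, 0.262 in TLR4 null kidneys and 0.691 averaged (n = 32). These correlations are over genes of the same 12 arrays and carry no test.

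**Figure D5:**
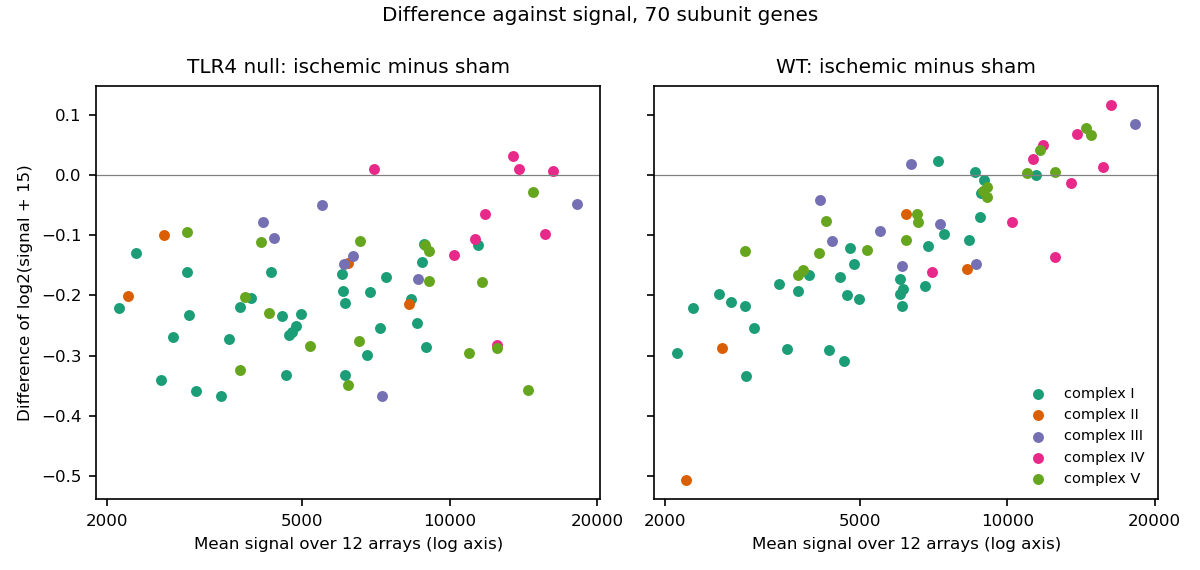
Log2 difference, ischemic minus sham, against mean signal (log axis) for the 70 subunits with a mean signal above 2000, in TLR4 null (left) and WT (right) kidneys, coloured by complex. Differences lie nearer to 0 at higher signals, with Spearman's rho of 0.283 in TLR4 null kidneys and 0.823 in WT kidneys.

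The separation of arrays was counted without a model. Every ischemic array was below every sham array for 39 of 80 subunits in TLR4 null kidneys (20.1% of all genes), for 23 in WT kidneys (23.7% of all genes) and, over all 6 against 6 arrays, for 12 (8.98% of all genes). Among the 1074 bright genes it held for 456, 337 and 209, so the share of the subunits was above theirs in TLR4 null kidneys and below it in WT kidneys and over all arrays. Complex I held 24, 16 and 11 of the subunits. The 12 were Ndufa2, Ndufa5, Ndufa8, Ndufa9, Ndufb3, Ndufb8, Ndufb10, Ndufs1, Ndufs4, Ndufs7, Ndufv2 and the ATP synthase stalk subunit Atp5j. For 0 subunits was every ischemic array above every sham array within a genotype.

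Most members have more than 1 probe set, and these did not always place a change in the same genotype. Over all 158 member probe sets past the filter, 37 were called lower in TLR4 null kidneys, 19 in WT kidneys and 63 averaged over genotypes, where 8.23%, 7.91% and 14.9% of all probe sets were called lower. Complex I had 40 of its 74 called lower in the averaged comparison, complex II 5 of 8, complex III 5 of 15, complex IV 6 of 32 and complex V 7 of 29. In 40 of 46 genes with several probe sets, the brightest and the next brightest both had a negative averaged difference.

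The second probe set of Sdhd had 552, 732 and 657 in TLR4 null ischemic kidneys, against 998, 946 and 950 in TLR4 null sham kidneys, and 663, 938 and 918 in WT ischemic kidneys, against 903, 915 and 784 in WT sham kidneys. It was apart in TLR4 null kidneys (-0.57, limma adjusted p = 0.00738, against -0.06, adjusted p = 0.823, in WT kidneys), where the brighter probe set of Sdhd was called in WT kidneys alone. The second probe set of Uqcrh turned the other way. It had 4158, 3860 and 3721 in TLR4 null ischemic kidneys, against 3953, 4552 and 4512 in TLR4 null sham kidneys, and 3290, 3342 and 3715 in WT ischemic kidneys, against 4345, 4788 and 4762 in WT sham kidneys, with a call in WT kidneys (-0.42, adjusted p = 0.00269, against -0.15, adjusted p = 0.275, in TLR4 null kidneys). For Sdha, the second probe set was called lower in TLR4 null kidneys (-0.46, limma adjusted p = 0.00432) and averaged (-0.34, adjusted p = 0.00156), where the brightest was not.

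Other genes of the pathway were counted beside the subunits, from lists chosen with earlier results known. In the averaged comparison, 19.4% of all genes were called lower and 13.7% higher. There, 8 of 14 complex I assembly factors fell and 1 rose. Ndufaf7, a mitochondrial methyltransferase, fell by 0.48 (limma adjusted p = 0.000343), Nubpl, which delivers iron-sulfur clusters to complex I, by 0.36 (adjusted p = 0.0021) and Ndufaf1 by 0.29 (adjusted p = 0.00295), while Ndufaf4 rose by 0.28 (adjusted p = 0.00152). Of 17 complex IV assembly factors 8 fell and 0 rose, although the subunits of complex IV had few calls. They included Cox15, needed to make heme a (-0.86, adjusted p = 0.000184), Coa6 (-0.71, adjusted p = 1.08e-07), Lrpprc, which stabilises mitochondrial mRNAs (-0.49, adjusted p = 0.000134), and Pet100 (-0.39, adjusted p = 0.000648). Of 12 assembly factors of complexes II, III and V, 4 fell and 1 rose, with Sdhaf4 at -0.59 (adjusted p = 6.09e-06) and Sdhaf3 at 0.31 (adjusted p = 0.0116).

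Among 13 regulators of mitochondrial biogenesis, 3 rose (23.1%) and 2 fell (15.4%) in the averaged comparison. Of all genes, 13.7% were called higher and 19.4% lower there. Pprc1 and Ppargc1a encode related coactivators of these genes, and they moved apart: Pprc1 rose by 1.12 (limma adjusted p = 1.21e-05) and Ppargc1a fell by 0.36 (adjusted p = 0.00232). Nrf1 rose by 0.46 (adjusted p = 0.00331) and Yy1 by 0.45 (adjusted p = 3.26e-05), while Tfam, which packages and transcribes mitochondrial DNA, fell by 0.52 (adjusted p = 2.03e-05). Of 13 tricarboxylic acid cycle enzymes 9 fell and 0 rose, among them Suclg1 (-0.33, adjusted p = 0.000228), Dld (-0.28, adjusted p = 0.000489) and Idh2 (-0.32, adjusted p = 0.00177). Of 15 genes of the outer membrane, import and nucleotide exchange, 3 fell (Opa1, Immt and Slc25a4) and 1 rose (Tomm20). The 20% of these genes that fell lay near the 19.4% of all genes. Of 6 listed hypoxia-regulated genes, not all of them of the respiratory chain, 3 fell and 0 rose: Pdk1 (-0.79, adjusted p = 4.18e-06), Bnip3 (-0.42, adjusted p = 1.67e-05) and Ndufa4l2 (-1.03, adjusted p = 0.0208). Neither of 2 tested uncoupling protein genes was called.

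Some markers of the kidney tubule were lower after ischemia too. In the averaged comparison 5 of 12 proximal tubule markers, 6 of 8 markers of the thick ascending limb and distal tubule and 4 of 7 collecting duct markers fell, and 0 rose, where 19.4% of all genes were called lower. The summed signal of the proximal tubule markers was 82913 to 94511 in TLR4 null ischemic kidneys, 95549 to 101575 in TLR4 null sham kidneys, 77701 to 95848 in WT ischemic kidneys and 83244 to 91165 in WT sham kidneys. For the thick ascending limb and distal tubule it was 46209 to 58578 in TLR4 null ischemic kidneys, 61160 to 67511 in TLR4 null sham kidneys, 50666 to 58875 in WT ischemic kidneys and 54346 to 68514 in WT sham kidneys. For the collecting duct it was 3708 to 5128 in TLR4 null ischemic kidneys, 4760 to 5677 in TLR4 null sham kidneys, 4906 to 5417 in WT ischemic kidneys and 5316 to 6701 in WT sham kidneys. In TLR4 null kidneys the ischemic and sham ranges of the first 2 lists did not overlap. The lowest signal of a tubule marker was 75.1, in the collecting duct list. Of 7 tested macrophage and neutrophil markers, 3 rose in the averaged comparison (S100a8 by 1.21, S100a9 by 1.30 and Cd68 by 0.98) and 3 fell (C1qa, C1qb and Csf1r). Their mean log2 signal was 7.93 to 8.02 in TLR4 null ischemic kidneys, against 7.68 to 7.84 in TLR4 null sham kidneys, and 8.36 to 8.54 in WT ischemic kidneys, against 8.05 to 8.08 in WT sham kidneys, with no overlap within a genotype. A sum was taken over 9 listed markers on the array, which include untested ones, so it covers other genes than the mean. This sum was 2260 to 2418 in TLR4 null ischemic kidneys, against 2250 to 2415 in TLR4 null sham kidneys. It was 2732 to 3269 in WT ischemic kidneys, against 2671 to 2712 in WT sham kidneys, so the sums overlapped in TLR4 null mice. The part of these cell types in the subunit results was not tested.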

How the data were processed

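Total RNA from 12 whole kidneys (4 groups of 3 mice, grouped by the labels) was measured on 1-colour arrays. The deposited table holds linear signal intensity per probe set. Per the submitters' processing notes, MAS5 produced it. Its version and scaling target were not given in the sources used here, and scanner files were not used here. From the values, all arrays share 1 trimmed mean. This keeps the sum of most signals equal, so a shift of bright transcripts moves the rest.

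Values were log2(signal + 15), so fold changes of dim genes are understated. A probe set was kept where 3 or more of the 12 arrays had it above their own 40th percentile (30326 of 45101), and a gene was represented by its brightest one (14322 genes). Of the probe sets, 34958 had 1 gene name in the platform annotation, 932 several and 9147 none, beside 64 control probe sets. limma 3.58.1 in R 4.3.3 (lmFit and trended eBayes) fitted a mean for each group over all arrays (8 residual degrees of freedom), with Benjamini-Hochberg adjustment over all genes and a threshold of 0.05. The fit was tested on simulated data. Tables and figures used Python 3.11.15. Array number limits the precision.

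The members, gene lists and role groups were chosen with earlier results of these data known. Named in full were the genes called with the smallest p (at most 6 a comparison and 3 a complex), the brightest of each complex, the isoforms of complex IV and the extremes. Other complex I members, the second probe sets and Ndufs7, Ndufv2 and Ndufs1 were named after their values were seen. Alternatives were other array scalings, pseudocounts of 1 and 60, other filters and probe set rules, no variance trend, array weights, fewer arrays in the fit, a replicate block, an adipocyte covariate and each array left out. Cox7b was not analysed here.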

Additional observations from a re-analysis of the deposited data

How the results depend on the processing

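Counts are of subunits called by limma at an adjusted p under 0.05. In TLR4 null kidneys the count of 24 was 0 under median scaling and 7 without the variance trend. In WT kidneys the count of 9 was 0 under median scaling, 28 after quantile normalization, 5 without the trend and 17 when centred on the bright genes, a setting chosen after seeing the data. The averaged count of 34 was 2 under median scaling and 21 without the trend. The single call between TLR4 null sham and WT sham kidneys was 0 under median scaling, with no filter, without the trend and with the replicate block. Leaving out each array in turn gave 6 to 26 in TLR4 null kidneys, 2 to 14 in WT kidneys, 22 to 38 averaged, 0 to 1 between sham groups, and 0 to 0 for the interaction and between ischemic groups. The median log2 difference in WT kidneys was -0.039 under median scaling, against -0.13 as reported. Over the arrays left out, medians were -0.21 to -0.14 in TLR4 null kidneys, -0.16 to -0.07 in WT kidneys and -0.18 to -0.13 averaged. No label pairs arrays of the same number. Deviations of 18 same-numbered pairs correlated at -0.06 to 0.10, against -0.13 to 0.14 for 36 pairs of different numbers. This showed no pairing, but with 3 arrays a group it cannot exclude one. The replicate block gave 21, 10 and 35 calls in TLR4 null, WT and averaged kidneys. Of 690 values of 27 calls of named genes under the alternatives, 609 stayed past the threshold, 81 did not and 0 changed sign. The cause of these changes was not tested. With 3 mice a group, the standard error within a genotype was 0.08 on the log2 scale (median of the complex I accessory subunits).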

Other observations

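A further 10 probe sets name a subunit among several genes, most often with a pseudogene or a copy, and were no members. Of the 9 past the filter, 7 were called lower and 0 higher averaged over genotypes (limma, all probe sets). Of all probe sets, 14.9% were called lower there. A probe set shared by Ndufb4, Ndufb4b and Ndufb4c, of an accessory subunit of complex I that has no bright probe set of its own, had an averaged log2 difference of -0.29 (limma adjusted p = 0.000403). Probe sets shared with a pseudogene or copy gave -0.26 for Ndufs5 (adjusted p = 0.0088), -0.27 for Ndufab1 (adjusted p = 0.00116), -0.22 for Ndufs6 (adjusted p = 0.00852) and -0.18 for the brighter of Ndufa11 (adjusted p = 0.0302). Their signal can come from either gene.

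The adipocyte marker Adipoq varied between arrays of a group, with 801, 34.8 and 255 in TLR4 null ischemic kidneys, against 402, 137 and 532 in TLR4 null sham kidneys, and 1376, 201 and 1620 in WT ischemic kidneys, against 544, 779 and 972 in WT sham kidneys. A sum was taken over the 6 listed adipocyte markers on the array, of which 5 were tested. This sum was 594 to 2063 in TLR4 null ischemic kidneys and 855 to 1478 in TLR4 null sham kidneys. It was 894 to 3428 in WT ischemic kidneys and 1359 to 2301 in WT sham kidneys.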
